A study of Homo sapiens with 6 samples.

Results

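A set of 42 genes that mark the proximal tubule or carry its transport work was followed in HK2 cells, to see which tubule functions these cells still expressed and how the genes stood after SIRT4 was overexpressed. The genes were taken by name rather than by a measured value, though with earlier results of these data known. All of them were among the 38100 genes of the deposited tables. They covered endocytosis receptors, solute and ion transporters, efflux pumps, brush border peptidases, enzymes of glucose production, and transcription factors and cadherins of the nephron. HK2 is an established human line of proximal tubular epithelial cells, immortalised with papillomavirus oncogenes, and its labels gave the genotype as WT. RNA was sequenced from 3 samples infected with an empty adenovirus (AdCtrl) and 3 infected with an adenovirus carrying SIRT4 (AdSirt4). All 6 samples received TGF-β1, a cytokine that drives fibrosis, so a level without TGF-β1 was not analysed here, and its dose and duration for these samples are not given in the sources used here. The study describes its in vitro replicates as technical, so p-values here measure the spread between these samples, which may be technical.

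The proximal tubule reclaims most of what the glomerulus filters. Megalin and cubilin take up filtered protein, sodium-coupled carriers at the brush border bring in glucose, phosphate and amino acids, and basolateral carriers pass them to the blood. Organic anion and cation transporters, together with ATP-driven pumps, secrete drugs and waste into the lumen, while sodium-proton exchange, carbonic anhydrase and sodium-bicarbonate cotransport recover bicarbonate. Peptidases on the brush border digest filtered peptides, and the cells make glucose from lactate and glutamine. The nuclear factor HNF4A drives much of this programme in the mature tubule, whereas PAX2, PAX8 and LHX1 act earlier, when the nephron forms. Cultured tubular lines are known for losing much of the mature transport programme.

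Total counts ranged from 42102861 to 53677241 in AdCtrl and from 41537353 to 85684748 in AdSirt4. SIRT4 itself had 31, 47 and 57 counts in AdCtrl replicates 1 to 3 and 1996, 7995 and 6827 in AdSirt4 replicates 1 to 3, which matched the labels. AdSirt4 replicate 1, the smallest library, stood apart. Across 14102 genes, its deviation from the mean of the other 2 AdSirt4 samples, in log2 counts scaled to library size (CPM), had a Spearman correlation of -0.70 with gene length, against 0.63 and 0.66 for the like deviations of AdSirt4 replicates 2 and 3, which are taken partly from replicate 1, and -0.24 to 0.24 in AdCtrl. The tubule genes took 0.0759% of its summed FPKM (fragments scaled to gene length and library size), against 0.114% to 0.120% in the other 5 samples. Results that rest on it are given with and without it.

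In AdCtrl, the cells kept part of the tubule programme and were low or silent for the rest. Taking a mean of 1 FPKM as expressed, 19 of the 42 genes (45.2%) were expressed, against 32.4% of all 38100 genes. Of these 19 genes, 10 reached 10 FPKM. A further 5 lay between 0.1 and 1 FPKM, and 18 lay under 0.1 FPKM, called silent here. These 18 were 42.9% of the set, against 55.9% of all 38100 genes, so silence was less common in the set. The levels were concentrated in few genes, since the 4 highest (CDH6, GGT1, DPP4 and PAX8) held 63.3% of the summed FPKM of the 42 and the 19 expressed genes held 99.6%. Acid-base and water transport (4 of 5 genes expressed), brush border peptidases (3 of 4) and nephron factors and cadherins (4 of 6) were the best kept groups. The endocytosis receptors (0 of 2), glucose and phosphate transporters (1 of 5) and organic ion transporters (2 of 8) were the least kept.

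**Figure D1:**
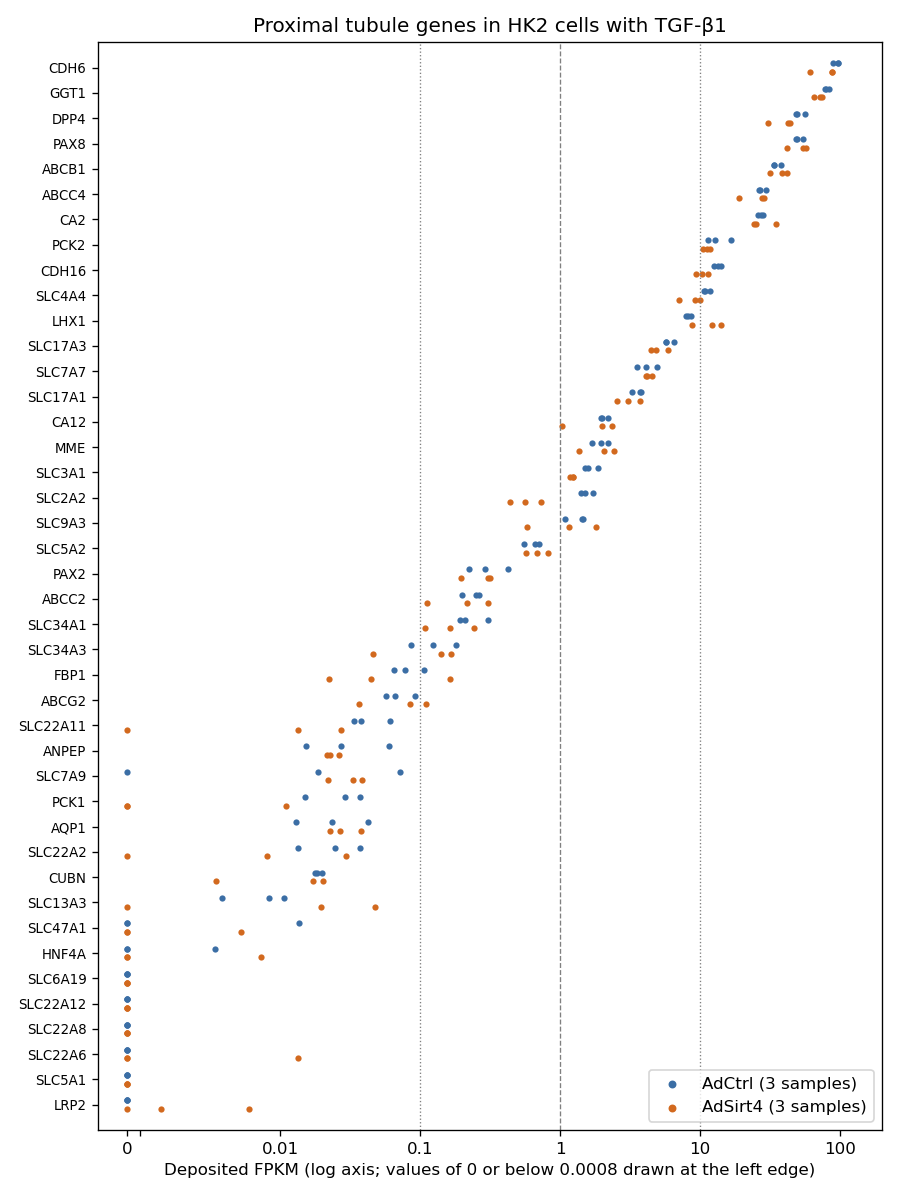
Deposited FPKM (log axis, values of 0 or close to it drawn at the left edge) of the 42 proximal tubule genes in each of the 3 AdCtrl and 3 AdSirt4 samples, ordered by the AdCtrl mean, with vertical lines at 0.1, 1 and 10 FPKM. The levels run from 94.5 FPKM for CDH6 to 0 for LRP2, and 19 genes lie at or above 1 FPKM in AdCtrl.

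Both receptors for filtered protein were silent. LRP2, which encodes megalin, had 0 counts in each AdCtrl library and 0, 10 and 2 counts in AdSirt4 replicates 1 to 3. A count of 0 allows up to 3 counts, or 0.0559 to 0.0713 CPM in the AdCtrl libraries, and such limits cover counting error only. CUBN, which encodes cubilin, had 14, 11 and 14 counts in AdCtrl and 2, 21 and 22 in AdSirt4, a mean of 0.0187 ± 0.00117 FPKM in AdCtrl (SD, n = 3). Its low count in AdSirt4 was in replicate 1, and CUBN has the greatest length (14.2 kb implied by the tables) of the tested tubule genes.

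Of the carriers of glucose and phosphate, the basolateral glucose transporter alone was expressed. SLC2A2, which encodes GLUT2, measured 1.72, 1.51 and 1.42 FPKM in AdCtrl. SLC5A2, the brush border sodium-glucose cotransporter SGLT2, was lower at 0.708, 0.661 and 0.549 FPKM, and its exons share 1390 bases with C16orf58 on the opposite strand. SLC5A1, which encodes SGLT1, had no count in any of the 6 samples. The sodium-phosphate cotransporters among the 42 genes were low as well. SLC34A1 (NaPi-IIa) had a mean of 0.237 ± 0.0619 FPKM and SLC34A3 (NaPi-IIc) one of 0.130 ± 0.0467 FPKM in AdCtrl (SD, n = 3). By contrast SLC20A2, a sodium-phosphate cotransporter from the list of 68 other proximal tubule genes below, measured 5.72, 5.30 and 5.61 FPKM in AdCtrl.

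Among the 42 genes, the basolateral uptake carriers of organic ion secretion were silent, whereas its exit side was partly kept. The uptake side as a whole was not silent, since SLCO4C1 was expressed in AdCtrl. This organic anion carrier is from the list of other proximal tubule genes below. SLC22A6 (OAT1) and SLC22A8 (OAT3), the basolateral organic anion uptake carriers, had 0 counts in AdCtrl, as had the urate transporter SLC22A12 (URAT1). The organic cation carrier SLC22A2 (OCT2) had 4, 5 and 2 counts in AdCtrl, SLC22A11 (OAT4) had 8, 7 and 13, and the apical extruder SLC47A1 (MATE1) had 0, 3 and 0. By contrast, the apical anion and urate carriers of the SLC17 family were expressed. SLC17A3 (NPT4) measured 6.54, 5.75 and 5.72 FPKM and SLC17A1 (NPT1) 3.79, 3.71 and 3.26 FPKM in AdCtrl. Both lie on chromosome 6, 12.8 kb apart, at chr6:25844856-25874243 and chr6:25723743-25832052 (GRCh38). SLC17A3 shares 253 exon bases with the pseudogene HIST1H2APS2 on the same strand. SLC22A6 and SLC22A8, silent together, lie 7.857 kb apart on chromosome 11, and SLC22A11 and SLC22A12 lie 18.3 kb apart on the same chromosome.

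Among the ATP-driven pumps, ABCB1 (P-glycoprotein, which exports many drugs) measured 33.67, 33.95 and 38.03 FPKM in AdCtrl. ABCC4 (MRP4, which exports organic anions and cyclic nucleotides) measured 26.9, 26.5 and 29.6 FPKM, below ABCB1 in every AdCtrl sample. Both pumps thus stood far above ABCC2 (MRP2), at a mean of 0.238 ± 0.0353 FPKM, and the urate exporter ABCG2, at 0.0715 ± 0.0181 FPKM (SD, n = 3).

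Among the amino acid carriers, the chains of the cystine carrier differed. SLC7A7, the light chain that exports cationic amino acids at the basolateral side, measured 3.55, 4.08 and 4.96 FPKM in AdCtrl. SLC3A1 (rBAT), the heavy chain of the brush border cystine carrier, measured 1.51, 1.58 and 1.88 FPKM, while its light chain partner SLC7A9 had 0, 2 and 8 counts. SLC3A1 shares 1923 exon bases with PREPL on the opposite strand, which had 4891 to 6580 counts in AdCtrl. It also shares 1761 exon bases with AC013717.1 on the same strand, so the count of SLC3A1 is uncertain. The neutral amino acid carrier SLC6A19 (B0AT1) had no count in any sample, and the dicarboxylate carrier SLC13A3 had 3, 1 and 2 counts in AdCtrl. No strand marking of the libraries is stated, so reads of SLC3A1 and PREPL cannot be told apart where they overlap.

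Bicarbonate recovery was the best kept transport function by share of genes expressed, although the call of SLC9A3 is uncertain. CA2, the cytosolic carbonic anhydrase, measured 28.1, 26.2 and 27.4 FPKM in AdCtrl. SLC4A4 (NBCe1), which moves bicarbonate out across the basolateral side, measured 11.7, 10.7 and 10.8 FPKM. The membrane carbonic anhydrase CA12 measured 2.19, 1.97 and 2.00 FPKM. These 3 genes differed from one another beyond their ranges. SLC9A3 (NHE3), the apical sodium-proton exchanger, measured 1.09, 1.46 and 1.44 FPKM, and its exons overlap those of EXOC3, PP7080 and SLC9A3-AS1. It shares 2363 exon bases on the same strand with PP7080, which had 302 to 451 counts in AdCtrl, so its count is uncertain. The water channel AQP1, in contrast, had 4, 6 and 2 counts in AdCtrl.

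Of the brush border peptidases, GGT1 and DPP4 were high, MME was low but expressed and ANPEP was silent. GGT1 (γ-glutamyltransferase, which breaks down glutathione) measured 83.5, 78.5 and 79.7 FPKM in AdCtrl, rank 680 of all genes. GGT1 has closely related family copies and shares 306 exon bases with SNRPD3 on the same strand, so its count is uncertain. DPP4 (dipeptidyl peptidase 4) measured 56.4, 48.9 and 49.1 FPKM. MME (neprilysin) was lower at 2.21, 1.68 and 1.97 FPKM. ANPEP (aminopeptidase N) had 14, 3 and 6 counts, a mean of 0.0342 ± 0.0231 FPKM in AdCtrl (SD, n = 3).

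Of the enzymes of glucose production, PCK2 alone was expressed. This enzyme, the mitochondrial phosphoenolpyruvate carboxykinase, measured 12.8, 11.5 and 16.7 FPKM in AdCtrl. PCK1, the cytosolic form on which renal glucose production depends, had 8, 4 and 10 counts in AdCtrl and 0, 5 and 0 in AdSirt4. FBP1 (fructose-1,6-bisphosphatase) had 8, 5 and 10 counts in AdCtrl and 2, 7 and 23 in AdSirt4.

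Of the nephron transcription factors, PAX8 and LHX1 were expressed, PAX2 was low and HNF4A was silent. PAX8 measured 48.6, 54.6 and 49.5 FPKM in AdCtrl, and its exons share 685 bases with PAX8-AS1. LHX1 measured 8.002, 8.20 and 8.57 FPKM. PAX2 was under 1 FPKM, at a mean of 0.314 ± 0.103 FPKM (SD, n = 3). HNF4A had 0, 2 and 0 counts in AdCtrl and 0, 6 and 0 in AdSirt4. The kidney cadherins were expressed. CDH6, the cadherin of the early and proximal tubule, measured 96.7, 89.2 and 97.6 FPKM, the highest of the 42 genes and rank 552 of all genes. Its exons share 1109 bases with the pseudogene DUX4L51 on the same strand and 125 with AC113386.1 on the opposite strand. CDH16 (kidney-specific cadherin) measured 14.1, 13.5 and 12.6 FPKM.

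Ordered by their AdCtrl means, several neighbours could not be separated by their samples. The ranges of DPP4 and PAX8 overlapped, as did those of ABCC4 and CA2, of PCK2 and CDH16, and of SLC7A7 and SLC17A1. CA12, MME, SLC3A1, SLC2A2 and SLC9A3 formed a run in which each overlapped the next. PAX2, ABCC2 and SLC34A1 formed another such run below 1 FPKM. From SLC34A3 downward each gene overlapped the next, except at the step from CUBN to SLC13A3.

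The promoters of the tubule genes were searched on both strands for the letters CAAAGTCCA, a site bound by HNF4A, and TATAAA, the TATA box. Sequences of 250 bases before to 50 bases after the start came from a table of RefSeq promoters (GRCh38.p14) in which 32 of the 42 genes were matched. CAAAGTCCA occurred in 0 of the 32 (0.363% of all 26422 promoters), and TATAAA occurred in 5 of the 32 (11.99% of all promoters). A match is a description of letters, not of binding.

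The second question was how the genes stood in AdSirt4 against AdCtrl. The clearest difference was in SLC2A2, which was lower in AdSirt4, followed by smaller differences in LHX1 (higher) and in CDH16, DPP4 and SLC4A4 (lower). The test was the quasi-likelihood F test of edgeR on the counts, with p-values adjusted by the Benjamini-Hochberg method over the 17720 genes that passed a filter on low counts. Of the 42 genes, 26 passed that filter and 16 did not. None of the 26 had an adjusted p below 0.05 (0 genes, against 0.0113% of all genes tested). At an unadjusted p below 0.05 there were 5 (1 higher, 4 lower), against 7.93% of all genes tested (4.43% higher, 3.5% lower). With the replicate number as a block, 3 of these 5 (SLC2A2, LHX1 and CDH16) stayed below 0.05, against 7.2% of all genes tested. DESeq2 called 1 gene at an adjusted p below 0.05 (SLC2A2, 1.33% of all genes), and limma with sample quality weights called 5 (SLC2A2, ABCB1, DPP4, LHX1 and CDH16, 9.51% of all genes).

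**Figure D2:**
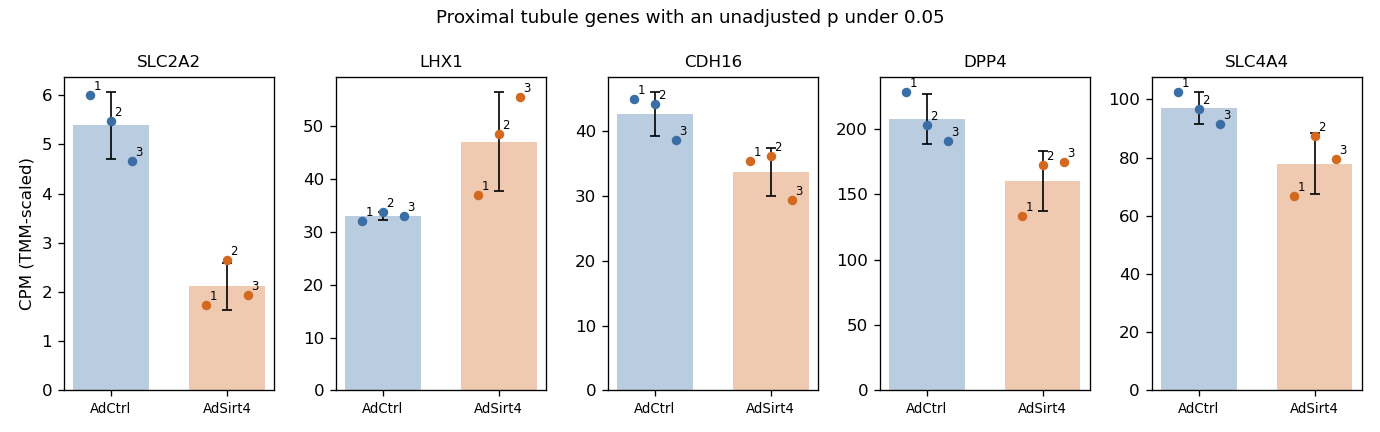
CPM scaled by TMM (y axis, from 0) of the 5 tubule genes with an unadjusted edgeR p below 0.05, with a point per sample numbered by replicate, bars at the mean and error bars of 1 SD (n = 3 per group). For each gene the AdCtrl and AdSirt4 samples do not overlap, and SLC2A2 has a mean of 5.39 CPM in AdCtrl and 2.11 in AdSirt4.

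SLC2A2 lies at chr3:170996347-171026720 on the minus strand (GRCh38). It measured 6.01, 5.48 and 4.67 CPM in AdCtrl replicates 1 to 3 and 1.75, 2.65 and 1.94 CPM in AdSirt4 replicates 1 to 3. The groups did not overlap, and every AdSirt4 sample was below every AdCtrl sample. The log2 fold change was -1.34 (standard error 0.202), to 0.395 of the AdCtrl level, with an edgeR p of 0.000295 and an adjusted p of 0.264. Over the alternative settings, its adjusted p ran from 4.92e-07 to 0.971. Without AdSirt4 replicate 1 the log2 fold change was -1.23 (edgeR adjusted p = 0.00427), and DESeq2 on all samples gave an adjusted p of 3.44e-06. SLC2A2 was also the one tubule gene that crossed 1 FPKM between the groups, from 1.55 ± 0.156 FPKM in AdCtrl to 0.579 ± 0.146 FPKM in AdSirt4 (SD, n = 3).

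LHX1, the LIM homeobox factor of the forming nephron, lies at chr17:36936785-36944612. It measured 32.1, 33.7 and 33.1 CPM in AdCtrl and 37.0, 48.6 and 55.7 CPM in AdSirt4. All AdSirt4 samples were above all AdCtrl samples, and their spread (SD 9.41 CPM) was wider than that of AdCtrl (0.809 CPM). The log2 fold change was 0.51 (standard error 0.153), with an edgeR p of 0.0122 and an adjusted p of 0.533. Replicate 1 was the lowest AdSirt4 sample, and without it the log2 fold change was 0.66 (edgeR adjusted p = 0.000719).

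CDH16 lies at chr16:66908122-66918885. It measured 44.9, 44.2 and 38.7 CPM in AdCtrl and 35.4, 36.2 and 29.4 CPM in AdSirt4, with no overlap between the groups. The log2 fold change was -0.34 (standard error 0.119), with an edgeR p of 0.0251 and an adjusted p of 0.593. Without AdSirt4 replicate 1 it was -0.38, with an edgeR adjusted p of 0.0460.

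DPP4, at chr2:161992245-162074215, measured 228, 203 and 191 CPM in AdCtrl and 134, 172 and 175 CPM in AdSirt4. All AdSirt4 samples were below all AdCtrl samples, with replicate 1 the lowest. The log2 fold change was -0.37 (standard error 0.138), with an edgeR p of 0.0315 and an adjusted p of 0.612. With the replicate block the unadjusted edgeR p was 0.0577, and without AdSirt4 replicate 1 the log2 fold change was -0.26 (adjusted p = 0.0515).

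SLC4A4, at chr4:71062660-71572083, measured 103, 96.8 and 91.6 CPM in AdCtrl and 66.8, 87.5 and 79.4 CPM in AdSirt4. The groups did not overlap, and AdSirt4 replicate 1 was again the lowest. The log2 fold change was -0.32 (standard error 0.122), with an edgeR p of 0.0356 and an adjusted p of 0.612. With the replicate block the unadjusted edgeR p was 0.0542, and without AdSirt4 replicate 1 the log2 fold change was -0.22 (adjusted p = 0.0643). For each of these 5 genes the two-sided exact permutation test over samples gave p = 0.10, the smallest that 3 against 3 samples allow.

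Of the 26 tested genes, the groups did not overlap in 8 (1 higher and 7 lower), against 19.4% of all genes tested (9.66% higher and 9.77% lower). Besides the 5 above, these were GGT1, PCK2 and CDH6. GGT1 measured 247, 239 and 227 CPM in AdCtrl and 210, 220 and 211 CPM in AdSirt4 (log2 fold change -0.15, edgeR adjusted p = 0.718). PCK2 measured 31.2, 29.1 and 39.5 CPM in AdCtrl and 28.1, 27.1 and 28.7 CPM in AdSirt4 (-0.25, edgeR adjusted p = 0.699). CDH6 measured 796, 762 and 766 CPM in AdCtrl and 546, 744 and 731 CPM in AdSirt4 (-0.20, edgeR adjusted p = 0.744), with AdSirt4 replicate 1 far below the other AdSirt4 samples, and without it the log2 fold change was -0.08.

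The other 11 expressed genes had overlapping groups. ABCB1 measured 199, 206 and 216 CPM in AdCtrl and 204, 248 and 226 CPM in AdSirt4, and PAX8 measured 223, 257 and 218 CPM against 208, 261 and 244 CPM. Both had log2 fold changes near 0, of 0.12 for ABCB1 and 0.03 for PAX8. ABCC4 measured 175, 171 and 184 CPM in AdCtrl and 132, 179 and 181 CPM in AdSirt4, and CA2 measured 49.8, 47.6 and 46.7 CPM against 67.6, 43.3 and 44.1 CPM. AdSirt4 replicate 1 was the lowest sample for ABCC4 and the highest for CA2, while the other two AdSirt4 samples lay within the AdCtrl range for ABCC4 and just below it for CA2. The acid-base genes CA12 (15.2, 14.1 and 13.4 against 7.78, 13.9 and 16.1 CPM) and SLC9A3 (6.92, 9.46 and 8.78 against 3.95, 7.32 and 11.2 CPM) also had their lowest value in AdSirt4 replicate 1.

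The remaining 5 expressed genes were carriers and a peptidase. SLC17A3 measured 13.9, 12.7 and 11.7 CPM in AdCtrl and 11.2, 12.3 and 9.44 CPM in AdSirt4, and SLC17A1 measured 8.77, 8.76 and 7.24 against 7.47, 8.61 and 5.93 CPM. These neighbouring carriers had log2 fold changes of -0.22 and -0.17. SLC3A1 measured 7.81, 10.3 and 9.58 CPM in AdCtrl and 6.98, 7.78 and 7.97 CPM in AdSirt4 (log2 fold change -0.28, edgeR adjusted p = 0.678), and SLC7A7 measured 8.49, 9.91 and 11.3 against 10.7, 9.64 and 10.6 CPM (0.06). MME measured 14.4, 11.2 and 12.2 CPM in AdCtrl and 9.49, 13.5 and 15.6 CPM in AdSirt4 (0.03). In all 5 the groups overlapped. Within the pairs of same-numbered samples, SLC3A1, SLC17A3 and SLC17A1 were lower in AdSirt4 in all 3 pairs, with log2 ratios of -0.16, -0.41 and -0.26 for SLC3A1, -0.31, -0.05 and -0.31 for SLC17A3, and -0.23, -0.02 and -0.29 for SLC17A1.

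**Figure D3:**
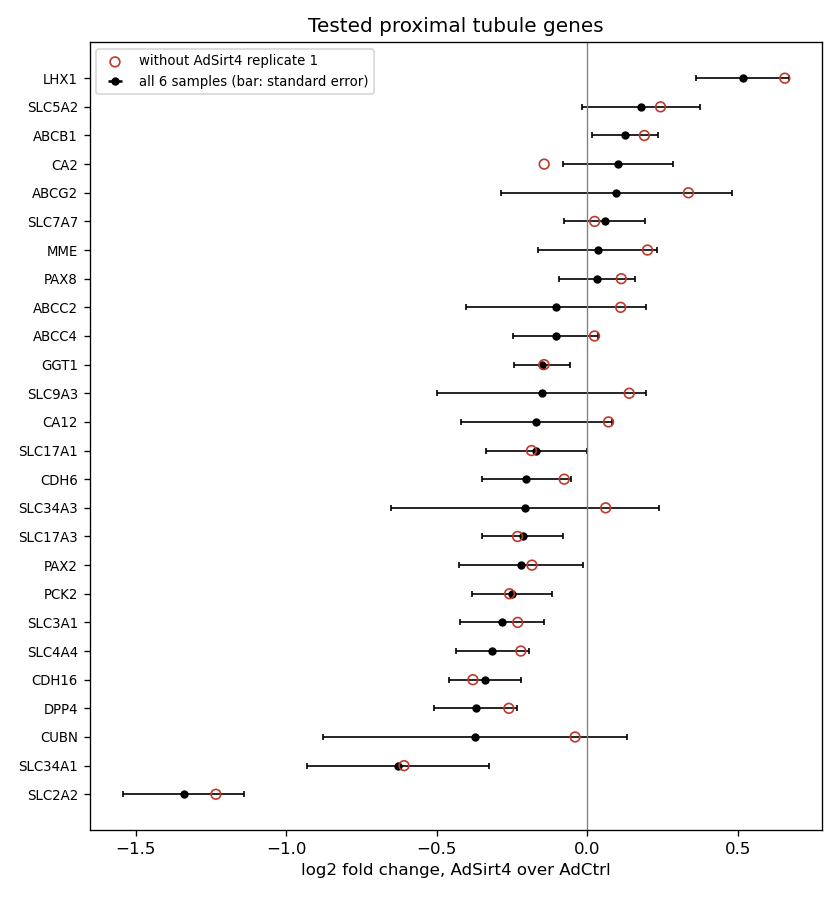
Log2 fold change of AdSirt4 over AdCtrl (x axis) for the 26 tested tubule genes, filled points from all 6 samples with bars of 1 standard error, open circles without AdSirt4 replicate 1. SLC2A2 lies at -1.34 and LHX1 at 0.51, and the open circles of SLC9A3, CA12, ABCC4, ABCC2, SLC34A3 and CA2 lie on the other side of 0 from their filled points.

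Across the 26 tested genes, the median log2 fold change was -0.17 and 18 (69.2%) lay below 0, against a median of 0.02 and 46.6% over all genes tested. This split depended on the setting. Without AdSirt4 replicate 1, 14 of 27 tested genes (51.9%) lay below 0, against 50.6% of all genes, and their median was -0.04. With the replicate block as well, 17 of 27 (63.0%) lay below 0, against 50.6%, with a median of -0.06. After removal of the length trend from all 6 samples, 19 of 26 (73.1%) lay below 0, against 47.0%, with a median of -0.14. Without AdSirt4 replicate 1 edgeR called 3 tubule genes at an adjusted p below 0.05 (SLC2A2, LHX1 and CDH16), against 6.71% of all genes tested. With the replicate block added, it called 9 (these 3 with ABCB1, SLC3A1, SLC4A4, MME, DPP4 and PCK2), against 13.8%.

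Gene length moved with the deviation of AdSirt4 replicate 1 among the tubule genes too. Its log2 CPM minus the mean of AdSirt4 replicates 2 and 3 had a Spearman correlation of -0.70 with length over the 26 genes, which share that library. All 8 genes of at least 6 kb were lower in replicate 1, by a median log2 difference of -0.72 and a range of -2.32 (CUBN) to -0.32 (SLC4A4). Of the 9 genes under 3 kb, 4 were lower and 5 higher, with a median of 0.01. CA2, the shortest at 1.78 kb, was 0.63 higher. After the length trend had been taken out of every sample, the edgeR log2 fold change was -1.34 for SLC2A2, 0.53 for LHX1, -0.36 for CDH16, -0.36 for DPP4, -0.19 for SLC4A4 and -0.02 for CA2.

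The genes that failed the filter were low in both groups, which the filter itself largely fixes in advance. SLC5A1, SLC22A8, SLC22A12 and SLC6A19 had no count in any sample, and 6 of the 42 had at most 3 counts in every library. SLC22A11 had 0, 10 and 5 counts in AdSirt4 against 8, 7 and 13 in AdCtrl, and SLC13A3 had 1, 8 and 19 against 3, 1 and 2. These counts are too few for a comparison at this depth. Of the genes between 0.1 and 1 FPKM, SLC34A1 had the largest difference, at 0.906, 0.706 and 0.506 CPM in AdCtrl and 0.436, 0.522 and 0.406 CPM in AdSirt4 (log2 fold change -0.63, edgeR adjusted p = 0.678).

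A list of 68 other proximal tubule genes gave a like split of levels. Of these, 26 (38.2%, against 32.4% of all genes) were expressed in AdCtrl and 11 lay between 0.1 and 1 FPKM. The other 31 (45.6%, against 55.9% of all genes) lay under 0.1 FPKM. Among the highest were the brush border scaffold PDZK1 at 81.8 ± 1.59 FPKM, the paracellular cation channel CLDN2 at 60.4 ± 2.07 and UGT2B7, which glucuronidates drugs, at 33.7 ± 2.54 (SD, n = 3). They were followed by MIOX (inositol breakdown) at 15.2 ± 0.143, the organic anion carrier SLCO4C1 at 11 ± 0.167, CYP24A1 (vitamin D breakdown) at 6.90 ± 1.03 and the endocytic adaptor DAB2 at 6.41 ± 0.291 FPKM (SD, n = 3). DAB2, known to bind the tail of megalin, was thus expressed while LRP2 was at 0. Among those under 0.1 FPKM were VIL1 of the brush border, ALPL and G6PC1.

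In AdSirt4, edgeR called 0 of the 41 tested genes of that list at an adjusted p below 0.05, and 5 had an unadjusted p below 0.05, all lower, against 0.0113% and 7.93% of all genes tested (3.5% lower). SLC6A20, a proline carrier, measured 6.55, 6.00 and 6.19 CPM in AdCtrl and 4.03, 4.50 and 4.31 CPM in AdSirt4 (log2 fold change -0.54, edgeR adjusted p = 0.494). The groups did not overlap, and AdSirt4 replicate 1 lay close to the other two. The remaining 4 were the peptidase ENPEP (-0.34), DDC, which makes dopamine (-0.95), the carrier SLC6A13 (-0.42) and UPB1 of pyrimidine breakdown (-0.30), with unadjusted edgeR p of 0.0113, 0.0312, 0.0399 and 0.0482. DESeq2 called 1 gene of the list (1.33% of all genes) and limma with sample quality weights 10 (9.51% of all genes).

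The labelled cell type was checked against markers of other cells. Of 11 epithelial keratin and junction genes, 9 were expressed, with KRT8 highest at 411 ± 12.2 FPKM (SD, n = 3), but E-cadherin (CDH1, 0.119 FPKM) and occludin (OCLN, 0.722 FPKM) were not. The 9 include CDH2 (N-cadherin) at 51.6 FPKM and VIM (vimentin) at 281 FPKM, both also known as markers of mesenchymal cells. The groups did not overlap in 3 of the 11 genes (2 higher, 1 lower), against 19.4% of all genes tested. VIM was higher, at 699, 684 and 667 CPM in AdCtrl and 981, 771 and 721 CPM in AdSirt4. Its log2 fold change was 0.27 (edgeR adjusted p = 0.701), and 0.12 without AdSirt4 replicate 1. KRT7 was higher as well (0.22, and 0.12 without that sample), whereas CDH2 was lower (-0.14, and -0.08 without it). Markers of the thick ascending limb and distal tubule (1 of 8 expressed, CLDN16), collecting duct (1 of 10, AVPR2), podocyte (0 of 6) and endothelium (0 of 6) were mostly low, and AQP2, SCNN1G, FOXI1 and PVALB were at 0. Of the fibroblast and pericyte markers 3 of 8 were expressed, RGS5 highest at 118 ± 3.34 FPKM with COL3A1 at 0, and of the leukocyte markers 2 of 6, CD68 highest at 18.2 ± 1.09 FPKM with CD3E and MS4A1 at 0 (SD, n = 3). The summed FPKM of the distal tubule list was 16.4 to 21.2 in AdCtrl and 19.5 to 25.5 in AdSirt4, that of the fibroblast and pericyte list was 124 to 131 and 110.4 to 125, and that of the leukocyte list was 18.6 to 20.8 and 20.2 to 23.8. These ranges overlapped between the groups.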

How the data were processed

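RNA-seq of HK2 cells with TGF-β1 was compared between AdCtrl (n = 3) and AdSirt4 (n = 3). The authors deposited whole-number counts per gene and a second table whose values were read as FPKM, since FPKM is not named in it. Gene lengths implied by both tables were the same within 5% in all 6 samples for 12226 of 15894 genes. The submitters' processing notes name fastp 0.21.0, HISAT2 2.1.0, StringTie 2.1.5, DESeq2 1.30.1 and hg38. Libraries were made from poly-A RNA with random hexamers, and no strand marking is stated. Titles all read HK2, but the number after HK in the cell line field changes from sample to sample, and HK2 was used for all.

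Counts were filtered (filterByExpr, minimum count 10), scaled by TMM and fitted with edgeR 4.0.16 (robust quasi-likelihood) in R 4.3.3, with Benjamini-Hochberg adjustment over 17720 genes. CPM values are TMM-scaled. FPKM was used for levels between genes, for summed levels of gene lists and in the limma alternatives. Alternatives were DESeq2 1.42.0, RLE scaling, other count filters, limma 3.58.1 on log2(FPKM + 1) and log2(FPKM + 0.1), voom with sample quality weights, removal of the length trend, the replicate block and leaving out each sample. Scripts were tested on simulated data with 200 of 17720 genes changed and no trend with gene length. There edgeR recovered 143 with 15 false calls, DESeq2 157 with 54, and voom with sample quality weights 139 with 12.

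Replicate numbers in the labels are shared between groups. Deviations from the group means correlated at 0.178, 0.159 and 0.176 between samples of the same number and at -0.188 to 0.0298 otherwise. Each deviation is taken from a mean of 3 samples, so these correlations depend on one another. They cannot decide whether the samples were paired. The main test used no block, and the replicate block was an alternative.

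Values were given per sample for each gene with a mean AdCtrl FPKM of at least 1 or an unadjusted p below 0.05, with the rest by counts and ranges. The genes and lists were chosen with earlier results of these data known. Promoter letters came from RefSeq (GRCh38.p14) and gene positions from GRCh38. Some genes of the list of 68 are not reported here.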

Additional observations from a re-analysis of the deposited data

How the results depend on the processing

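The number of expressed tubule genes in AdCtrl was 19 on leaving out each AdCtrl sample in turn. It depends on the threshold of 1 FPKM. MME, SLC3A1, SLC2A2 and SLC9A3 lay little above it, at means of 1.95 to 1.33 FPKM, and SLC5A2 came next below it, at 0.639 FPKM. The number called in AdSirt4 at an adjusted p below 0.05 was 0 with edgeR on all samples, 1 with DESeq2 and 5 with voom and sample quality weights. It ran from 0 to 3 on leaving out each sample in turn, the 3 coming without AdSirt4 replicate 1, and was 9 without that sample with the replicate block, a setting chosen after seeing the data. For the 68 other proximal tubule genes these numbers were 1, 10, 0 to 6 and 13. The shares called over all genes were 1.33% with DESeq2, 9.51% with quality weights, 6.71% without AdSirt4 replicate 1 and 13.8% with the block added. The replicate block lowered the number at an unadjusted p below 0.05 from 5 to 3 and, on all 6 samples, changed no call of a tubule gene at an adjusted p below 0.05. The median log2 fold change of the tested tubule genes ran from -0.24 to -0.04 on leaving out each sample.

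Of the 19 expressed genes, 7 that edgeR did not call on all samples had log2 fold changes of the other sign in some settings. On leaving out each sample in turn, ABCC4 ran from -0.184 to 0.0236, SLC7A7 from -0.0427 to 0.164, SLC9A3 from -0.557 to 0.139, CA2 from -0.144 to 0.220, CA12 from -0.387 to 0.0699, MME from -0.128 to 0.199 and PAX8 from -0.0360 to 0.112. With sample quality weights ABCC4 was at 0.0186 and CA2 at -0.138. Without AdSirt4 replicate 1 and with the replicate block, ABCC4 was at 0.0175, SLC7A7 at -0.0746, CA2 at -0.116 and CA12 at 0.122. With the length trend removed CA2 was at -0.0159, and at -0.0176 with the block added. On log2(FPKM + 1) MME was at -0.0127 and PAX8 at -0.00479, the same with a filter at 1 FPKM, and on log2(FPKM + 0.1) they were at -0.0275 and -0.00507. The cause was not tested.

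The depth limits the silent genes, for which a count of 0 in AdCtrl allows up to 3 counts.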

Other observations

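The expressed tubule genes had fewer CG pairs near their starts than expressed genes in general. In the windows of 250 bases before to 50 bases after the start, the 14 expressed tubule genes matched in the table of RefSeq promoters (GRCh38.p14) had a median of 12 CG pairs, against 27 over 10006 expressed genes. The 13 silent tubule genes had a median of 11, against 4 over 13330 silent genes. The 32 tubule genes matched ran from 0 to 47. These are descriptions with no test.

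PAX8-AS1, which overlaps PAX8 on the opposite strand, had 531, 572 and 596 counts in AdCtrl replicates 1 to 3 and 106, 1519 and 1624 in AdSirt4 replicates 1 to 3, so that AdSirt4 replicate 1 lay below and the other AdSirt4 samples above every AdCtrl sample. PAX8 counts were 12063, 10908 and 11206 in AdCtrl and 8119, 22470 and 19822 in AdSirt4. AdSirt4 replicate 1 again lay below and the other AdSirt4 samples above every AdCtrl sample. The order within each group differed from that of PAX8-AS1, and in CPM the PAX8 groups overlapped. These raw counts are not scaled to library size.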
